A study of Rattus norvegicus with 6 samples.

Results

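The interferon system of rat atrial fibroblasts was followed through 8 genes chosen by name among the 40154 genes of the deposited gene table. They were the ligand genes Ifnb1 and Ifng, the type I receptor chains Ifnar1 and Ifnar2, the type II receptor chains Ifngr1 and Ifngr2, and the type III receptor chains Ifnlr1 and Il10rb. All 8 were present in the table. The cells were primary fibroblasts from Sprague-Dawley rats aged 1 to 3 days, obtained from minced and trypsinised hearts by their early attachment to plastic. That step is meant to leave the myocytes in suspension, but myocyte transcripts were found in all 6 libraries. One group of 3 libraries received negative-control small interfering RNA (si-NC) and the other group of 3 received small interfering RNA directed at Gpd1l (si-GPD1L), a gene that encodes a relative of glycerol-3-phosphate dehydrogenase. RNA with a poly(A) tail was sequenced 24 h after transfection. All 6 libraries shared the medium with fetal bovine serum and carried the treatment label "Atrial differentiation", which is not explained further. The cells were not purified with a surface marker, and neither an untransfected culture nor a culture given interferon was analysed here. The labels number the libraries within each group without naming separate animals or cultures, and without saying whether the si-GPD1L numbers stand for repeats of 1 small interfering RNA or for different ones. They were treated as replicates, so the p-values measure only the spread between these libraries, which may be technical.

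Interferons are secreted proteins that cells release on sensing foreign or misplaced nucleic acid, and each type acts through its own pair of receptor chains. Type I interferons, including interferon beta from Ifnb1 and the interferon alphas, bind Ifnar1 and Ifnar2 on nearly all nucleated cells. Fibroblasts are a classical source of interferon beta. Interferon gamma from Ifng, made mainly by T and natural killer cells, binds Ifngr1 and signals through Ifngr2. Type III interferons bind Ifnlr1, a chain best known from epithelia, together with Il10rb, which is also a chain of the receptors for interleukin 10 and interleukin 22. Janus kinases attached to these chains phosphorylate transcription factors of the STAT family, which enter the nucleus and switch on the interferon-inducible genes.

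The 6 libraries held 16892255 to 20149732 counts assigned to genes, and their normalisation factors lay between 0.9938 and 1.01. The targeted gene, Gpd1l, had 265, 314 and 321 raw counts in si-NC replicates 1, 2 and 3 and 202, 229 and 303 in si-GPD1L replicates 1, 2 and 3. After normalisation, si-GPD1L replicate 3 lay inside the si-NC range, and the log2 fold change of -0.31 (SE 0.147) did not pass the test (edgeR adjusted p = 0.234), so the directions below are those of the libraries labelled si-GPD1L. All 10 fibroblast marker genes passed the filter on low counts. Their summed level, in counts scaled to library size (CPM), was 71100 to 87100 in the si-NC libraries against 81500 to 86100 with si-GPD1L. Most of this sum came from Col1a1 and Col3a1, whose log2 fold changes of 0.25 and -0.26 did not pass the test (edgeR adjusted p = 0.219 and 0.156). Of the 10, 2 were called lower in si-GPD1L, the matrix proteoglycans Dcn and Lum, against 2.33% of all genes tested. The call of Dcn was lost without si-GPD1L replicate 1 or 2 (edgeR adjusted p = 0.0564 and 0.0842). Macrophage markers were also present, with a summed CPM of 165 to 179 in the si-NC libraries against 141 to 202 with si-GPD1L. In bulk RNA, fewer cells of a type and less RNA per cell cannot be told apart.

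Neither ligand gene was detected. Ifnb1 (NCBI gene 24481, rn6 chromosome 5, 106865192 to 106865746, minus strand) had 0 counts in all 6 libraries. Ifng (NCBI gene 25712, rn6 chromosome 7, 61337383 to 61341419, plus strand) also had 0 counts in all 6 libraries. A count of 0 allows up to 3 counts, and this floor, like every counting interval here, covers counting error only. For Ifnb1 that limit was 0.647 to 0.794 TPM (a level scaled to transcript length and library size), and for Ifng it was 0.706 to 0.867 TPM. The receptor chains stood well above it. Across the libraries, Ifngr1 in TPM was 210 to 307 times the Ifnb1 limit, Ifnar1 was 37.7 to 44.3 times and Ifnlr1 was 8.53 to 11.6 times. Neither ligand could be tested between the groups, since both had 0 counts throughout. A difference at very low levels was not detectable at this depth. Times other than 24 h were not analysed here.

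The bases in front of Ifnb1 are shown because this start is a well-known target of factors that nucleic acid sensors activate. The last 140 bases before the RefSeq start site of Ifnb1 (build GRCr8, printed 5′ to 3′ on the gene's own strand) carry, in capitals, every match to an interferon regulatory factor (IRF) element, AANNGAAA, and to a kappaB element, GGGA followed by any 4 bases and CC, searched on both strands.
Ifnb1, chr5:108067488-108067627 (minus strand): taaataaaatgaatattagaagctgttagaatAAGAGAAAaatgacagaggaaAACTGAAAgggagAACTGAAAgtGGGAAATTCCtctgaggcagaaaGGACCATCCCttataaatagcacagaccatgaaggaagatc
The 3 IRF element matches shown began 108, 87 and 74 bases before the start, and 1 more, on the other strand, lay farther out in the 250 bases searched. The kappaB matches began 64 and 41 bases before the start, the second on the other strand. Among all 33469 promoters of the same length, 23.3% held the IRF element and 16.4% held the kappaB element, so each match alone is common. Both of these motifs were chosen after the sequences had been seen. A match is a run of letters and not a measured binding site, and these data hold no readout of the promoter other than the 0 counts.

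Beyond Ifnb1 and Ifng, the table named 10 other interferon ligand genes, of which 8 had 0 counts in every library. Ifna5, an interferon alpha gene, had 1 count in si-GPD1L replicate 3 and 0 elsewhere. The row named Ifne, for interferon epsilon, a type I interferon known from the reproductive tract, was the only one of the 12 genes with an interferon ligand symbol to exceed 3 counts in a library. It had 18, 3 and 9 counts in si-NC replicates 1, 2 and 3 and 5, 16 and 6 in si-GPD1L replicates 1, 2 and 3. A ligand was called detected in a group when above 3 counts in all 3 of its libraries. By that rule Ifne was detected in si-GPD1L and not in si-NC, where replicate 2 stood at 3 counts. The groups overlapped throughout, and the differing call rests on that library. The summed counts were 30 in si-NC (95% Poisson interval 20.2 to 42.8) and 27 in si-GPD1L (17.8 to 39.3), and the row failed the filter on low counts and was not tested. Of the 12 interferon ligand genes by symbol, 10 were therefore at 0 in all 6 libraries. In the type I interferon cluster of chromosome 5, which holds 16 protein-coding genes described as interferons, 12 were at 0 in every library. The other 4 were Ifna5, Ifne and the unnamed LOC108348243 and RGD1559679, which reached at most 4 and 2 counts. These genes are close relatives, and reads that align to several of them may not have been counted.

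The identity of the Ifne row was not settled. RefSeq's current rat table gives the symbol Ifne to another gene number, 108350996, which the deposited table holds as LOC108350996, a long noncoding RNA of the same cluster (rn6 chromosome 5, 107178124 to 107203908, plus strand). This gene was looked up after its values had been seen. It had 2, 4 and 12 counts in si-NC and 37, 23 and 16 in si-GPD1L. Its groups did not overlap, but it was under 10 counts in 2 of the si-NC libraries and passed the filter through si-GPD1L, where it was high. Its log2 fold change was 2.06 (SE 0.549, edgeR adjusted p = 0.0458). The call was lost in 5 of the 6 fits that left out 1 library and with the replicate block, and the adjusted p ran from 0.00225 to 0.212 over its 13 alternatives. Whether these reads come from an interferon epsilon transcript was not tested.

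All 6 receptor chains were expressed in both groups. Their order was set by TPM within each group. Ifngr1, the chain that binds interferon gamma, stood first with 151.3 ± 10.3 TPM in si-NC and 200.5 ± 5.27 TPM in si-GPD1L (SD, n = 3). In si-NC, Ifngr2 (28.8 ± 1.64 TPM), Ifnar1 (28.78 ± 3.78 TPM) and Ifnar2 (26.39 ± 3.06 TPM) followed, each overlapping its neighbour in the order. Il10rb, at 21.76 ± 0.799 TPM, lay below the lowest Ifnar2 library. Ifnlr1 was last at 7.688 ± 0.842 TPM in si-NC and 6.693 ± 0.17 TPM in si-GPD1L, apart from Il10rb in both groups. In si-GPD1L, Ifnar1 (30.67 ± 1.56 TPM), Ifngr2 (28.59 ± 2.31 TPM), Ifnar2 (27.69 ± 4.16 TPM) and Il10rb (22.93 ± 2.64 TPM) each overlapped the next. Percentiles in si-NC were taken among all 40154 genes, of which only 14852 passed the filter on low counts. On that scale Ifngr1 was at percentile 97.6, Ifnar1 and Ifngr2 at 87.7, Ifnar2 at 87.0, Il10rb at 85.4 and Ifnlr1 at 76.8. Among the genes that passed the filter, these percentiles would be lower.

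**Figure D1:**
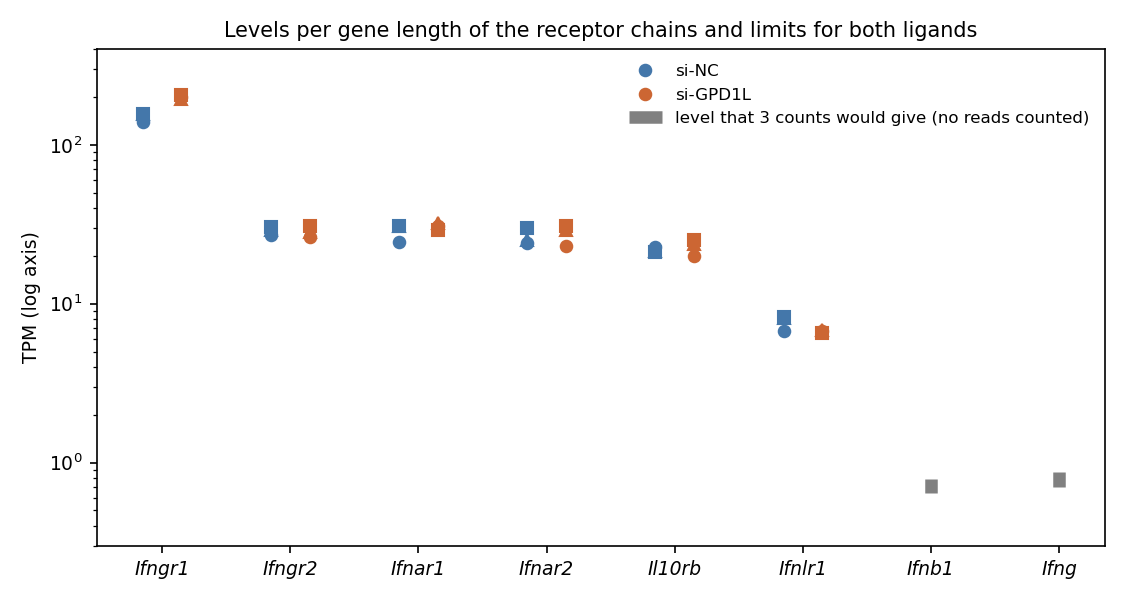
Level of each of the 8 genes in TPM (log axis) in the si-NC and si-GPD1L libraries, 1 point per library, with the level that 3 counts would give drawn for Ifnb1 and Ifng, which had 0 counts. Ifngr1 lies above every other chain, Ifnlr1 lies below every other chain, and the 4 chains between them lie close together.

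The comparison of si-GPD1L with si-NC asked whether the receptor or ligand transcripts changed when Gpd1l was targeted. Ifngr1 was the only one of the 8 genes that passed the test at an adjusted p under 0.05, and it was higher in si-GPD1L by 1.252-fold. Of the 6 genes that could be tested, 1 was higher, 0 were lower and the other 5 did not pass. Over all 14852 genes tested, 6.36% were called in either direction, 4.03% higher and 2.33% lower in si-GPD1L. With a log2 fold change beyond 1 asked for as well, 0 of the 6 were called, against 1.62% of all genes. The median log2 fold change of the 6 was -0.011, close to the median of -0.0049 over all genes tested. The normalised counts of the groups did not overlap for 2 of the 6, Ifngr1 and Ifnlr1, and the share of all tested genes with this pattern was 29.0%.

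**Figure D2:**
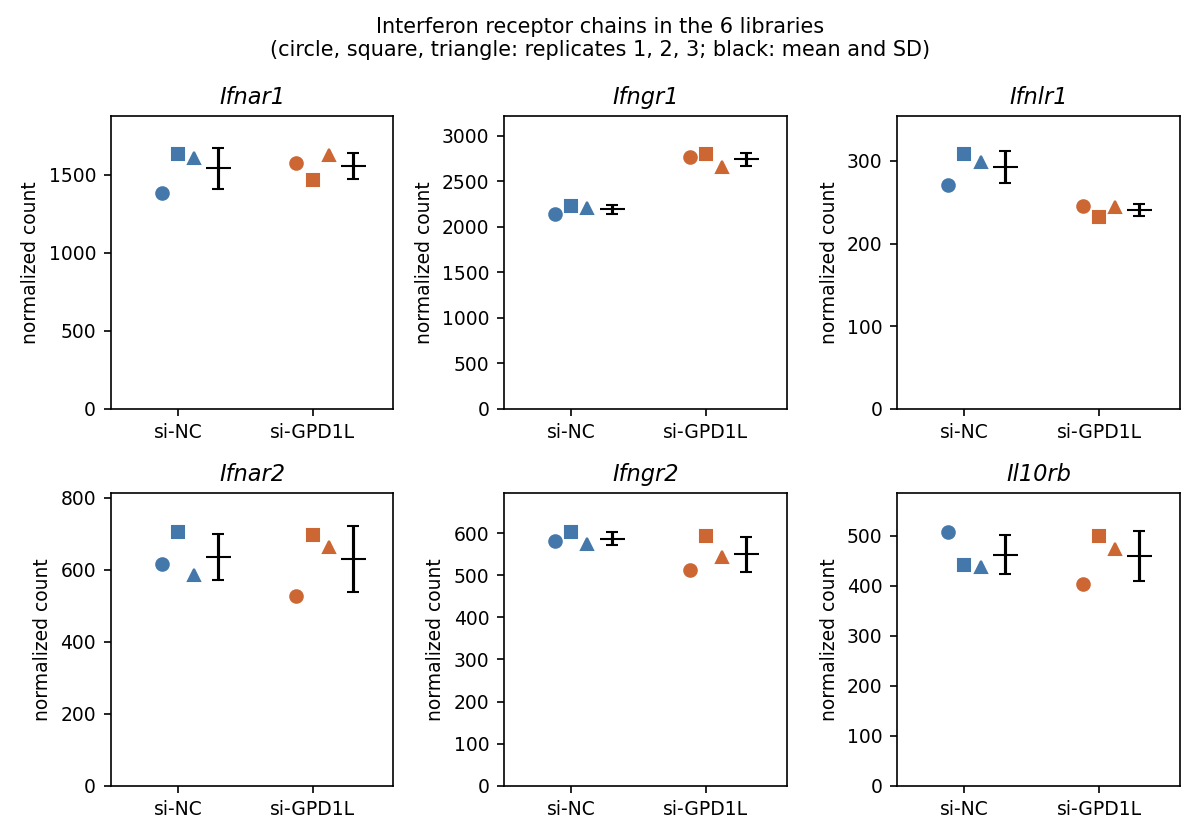
Normalised counts of the 6 receptor chains in each library, with 3 points per group and the group mean and SD. Ifngr1 is higher in all 3 si-GPD1L libraries and Ifnlr1 lower in all 3, while the other 4 chains overlap between the groups.

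Ifngr1 (NCBI gene 116465, rn6 chromosome 1, 15062380 to 15080815, plus strand) encodes the chain that binds interferon gamma. It had 2160, 2107 and 2259 raw counts in si-NC replicates 1, 2 and 3 and 2537, 3076 and 2666 in si-GPD1L replicates 1, 2 and 3. After normalisation these were 2136, 2230 and 2205 in si-NC and 2766, 2796 and 2661 in si-GPD1L. Every si-GPD1L library lay above every si-NC library, and the spread within each group was small beside the gap between them. The means were 2190.1 ± 48.7 and 2741.1 ± 70.7 normalised counts (SD, n = 3 libraries each). Ifngr1 rose by a log2 fold change of 0.32 (SE 0.065, 95% interval 0.18 to 0.47, edgeR adjusted p = 0.0113), a fold of 1.252 with an interval of 1.135 to 1.38. It ranked 389 by p among the genes tested. The call was lost without si-GPD1L replicate 1 (log2 fold change 0.32, adjusted p = 0.0745) and without si-GPD1L replicate 2 (0.31, adjusted p = 0.0987), each a fit with fewer libraries.

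Ifngr2 (NCBI gene 360697, rn6 chromosome 11, 31694339 to 31712611, plus strand) encodes the signalling chain of the same receptor. Its normalised counts were 582, 604 and 575 in si-NC and 512, 594 and 544 in si-GPD1L. The lowest libraries were si-GPD1L replicates 1 and 3, while replicate 2 lay within the si-NC range. The log2 fold change was -0.092 (SE 0.0855, edgeR adjusted p = 0.571), and its 95% interval of -0.28 to 0.094 allows folds from 0.825 to 1.067. With 3 libraries a group, folds within these bounds could not be told apart, and the interval is not adjusted over all genes.

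The promoters of the 2 type II chains are shown side by side because only one of the pair passed the test. They are the 250 bases before each RefSeq start (GRCr8, printed 5′ to 3′), with capitals for any match, on either strand, to the kappaB and IRF elements spelled out above, to the interferon-stimulated response element core (GAAA, any 2 bases, GAAA) or to the gamma-activated site (TTCNNNGAA).
Ifngr1, chr1:16152660-16152909 (plus strand): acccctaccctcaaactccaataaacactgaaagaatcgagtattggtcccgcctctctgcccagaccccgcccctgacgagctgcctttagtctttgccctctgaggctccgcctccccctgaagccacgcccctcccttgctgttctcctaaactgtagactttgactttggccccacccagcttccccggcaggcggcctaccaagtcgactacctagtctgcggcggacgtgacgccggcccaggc
Ifngr2, chr11:44265453-44265702 (plus strand): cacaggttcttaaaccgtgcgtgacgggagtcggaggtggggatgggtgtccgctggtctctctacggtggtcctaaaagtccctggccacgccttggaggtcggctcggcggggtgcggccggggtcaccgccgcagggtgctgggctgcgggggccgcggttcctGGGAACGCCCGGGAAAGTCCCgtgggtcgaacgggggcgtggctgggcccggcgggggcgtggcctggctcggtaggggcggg
Ifngr1 held no match to any of these 4 motifs. Ifngr2 held 3 kappaB matches 83 to 63 bases before its start. The first lay at 83 to 74, and 2 that overlap each other lay at 73 to 64 and, on the other strand, at 72 to 63. Of all 33469 promoters, 3.41% held the response element core and 7.67% the gamma-activated site. The core was found in 0 of the 8 genes, and the gamma-activated site in 1, Ifnar2, whose match TTCCTGGAA lay 249 to 241 bases before the start. Every response element core contains the IRF element, which was found in 3 of the 8 genes, Ifnb1, Ifnlr1 and Il10rb. The kappaB element was found in 4, Ifnb1, Ifng, Ifngr2 and Il10rb. The absence of a match says only that these letters are not in this window.

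The genes whose normalised counts followed Ifngr1 most closely over the 6 libraries were found by the root mean square difference in log2 counts, each centred on its si-NC mean, among 11882 genes. They were Alkbh4, a demethylase of the AlkB family, at 0.0368, Tubb4b, a beta tubulin, at 0.0377, and H2afx, the histone variant H2A.X, at 0.0378. Their log2 fold changes were 0.30, 0.32 and 0.30, and values near that of Ifngr1 follow from how these genes were picked. Their tests are therefore given as a description. Tubb4b and H2afx passed the test (edgeR adjusted p = 0.0135 and 0.0396) and Alkbh4 did not (edgeR adjusted p = 0.298). The call of Tubb4b was lost when si-NC replicate 2, si-GPD1L replicate 1 or si-GPD1L replicate 2 was left out (edgeR adjusted p = 0.0588, 0.103 and 0.0766), and that of H2afx in 5 of the 6 fits that left out 1 library.

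The type I receptor chains did not pass the test. Ifnar1 (NCBI gene 288264, rn6 chromosome 11, 31640407 to 31666839, plus strand), the chain that carries the kinase Tyk2, had 1385, 1630 and 1604 normalised counts in si-NC and 1573, 1462 and 1624 in si-GPD1L. The lowest value was si-NC replicate 1, and the other 5 libraries were interleaved. Its log2 fold change was 0.013 (SE 0.0805, edgeR adjusted p = 0.949), with a 95% interval for the fold of 0.894 to 1.139. Ifnar2 (NCBI gene 686326, rn6 chromosome 11, 31527790 to 31559834, plus strand), the chain that carries the kinase Jak1, had 615, 706 and 585 normalised counts in si-NC and 526, 697 and 664 in si-GPD1L. Here the lowest value was si-GPD1L replicate 1, and the groups overlapped. Its log2 fold change was -0.011 (SE 0.113, edgeR adjusted p = 0.969), with an interval for the fold of 0.838 to 1.175.

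The type III receptor chains differed from each other in how close they came to the threshold, though the difference between them was not tested in the fit. Ifnlr1 (NCBI gene 362628, rn6 chromosome 5, 154037243 to 154058862, plus strand), the chain specific to interferon lambda, had 274, 291 and 306 raw counts in si-NC and 225, 256 and 245 in si-GPD1L. In normalised counts these were 271, 308 and 299 in si-NC and 245, 233 and 245 in si-GPD1L. Every si-GPD1L library lay below every si-NC library. The log2 fold change was -0.28 (SE 0.101, 95% interval -0.50 to -0.061), with a raw p of 0.0165 and an adjusted p of 0.123 by edgeR, so it did not pass the test over all genes. It passed in 1 of the alternatives, the fit without si-NC replicate 1 (log2 fold change -0.33, edgeR adjusted p = 0.0494). Il10rb (NCBI gene 304091, rn6 chromosome 11, 31560301 to 31582457, plus strand), the shared chain, had 508, 441 and 437 normalised counts in si-NC and 402, 499 and 474 in si-GPD1L. Its groups overlapped, with si-GPD1L replicate 1 lowest and si-NC replicate 1 highest. The log2 fold change was -0.0099 (SE 0.105, edgeR adjusted p = 0.971), with an interval for the fold of 0.848 to 1.163.

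**Figure D3:**
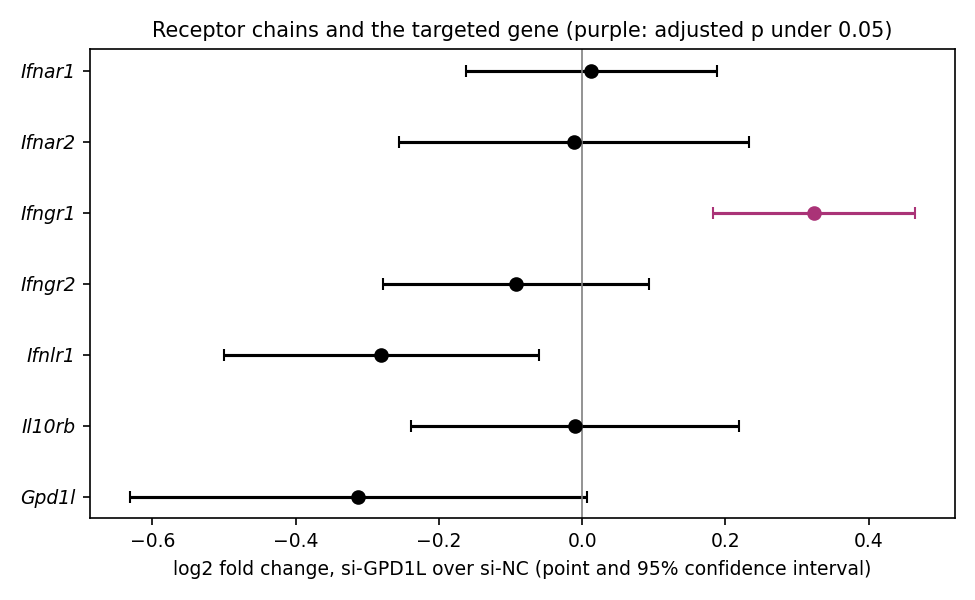
Log2 fold change of si-GPD1L over si-NC for the 6 tested receptor chains and for Gpd1l, with 95% intervals from edgeR. The interval of Ifngr1 lies above 0 and that of Ifnlr1 below 0, and the other intervals include 0.

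Ifnar2, Il10rb, Ifnar1 and Ifngr2 lie in this order on chromosome 11, within 184822 bases and on the same strand. The end of Ifnar2 and the start of Il10rb are only 466 bases apart, the gap from Il10rb to Ifnar1 is 57949 bases and that from Ifnar1 to Ifngr2 is 27499 bases. None of these 4 neighbours passed the test, and the chain that did, Ifngr1, lies on chromosome 1. In si-GPD1L replicate 1, Ifnar2, Ifngr2 and Il10rb all had their lowest normalised count of the group.

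Transcript counts added detail for Ifnlr1. Ifngr1 and Ifngr2 each had a single annotated transcript with the same counts as the gene, so these are not a second measurement. Ifngr1 had 1 transcript in the table, with a log2 fold change of 0.30 (edgeR adjusted p = 0.0167 over all transcripts tested). Ifnlr1 had a shorter transcript of 1593 bases, with 109, 105 and 145 counts in si-NC and 76, 92 and 87 in si-GPD1L. Every si-GPD1L library was below every si-NC library for it, at a log2 fold change of -0.53 (SE 0.158, edgeR adjusted p = 0.0712). The longer Ifnlr1 transcript, of 4821 bases, had a log2 fold change of -0.31 (edgeR adjusted p = 0.0962). Neither passed the test. Reads shared by several transcripts may be counted in more than one of them, so the transcripts of 1 gene are not independent.

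A receptor works as a pair, and the balance of its chains was taken as the ratio of their TPM within each library. Ifngr1 to Ifngr2 was 5.16, 5.19 and 5.4 in si-NC and 7.6, 6.62 and 6.89 in si-GPD1L. All 3 si-GPD1L ratios lay above all 3 si-NC ratios, with means of 5.25 ± 0.128 and 7.04 ± 0.506 (SD, n = 3). The difference of 0.42 on the log2 scale had a two-sided exact permutation p of 0.1, the smallest that 3 libraries against 3 can give, and 0.3 after adjustment over the 3 ratios. Ifnar1 to Ifnar2 was 1.09 ± 0.12 in si-NC and 1.13 ± 0.203 in si-GPD1L, with overlapping libraries (exact permutation p = 0.9, adjusted 0.9). Il10rb to Ifnlr1 was 3.37, 2.58 and 2.63 in si-NC and 2.95, 3.86 and 3.49 in si-GPD1L, where si-NC replicate 1 lay inside the si-GPD1L range (exact permutation p = 0.2, adjusted 0.3). No ratio could reach the 0.05 threshold in this design.

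**Figure D4:**
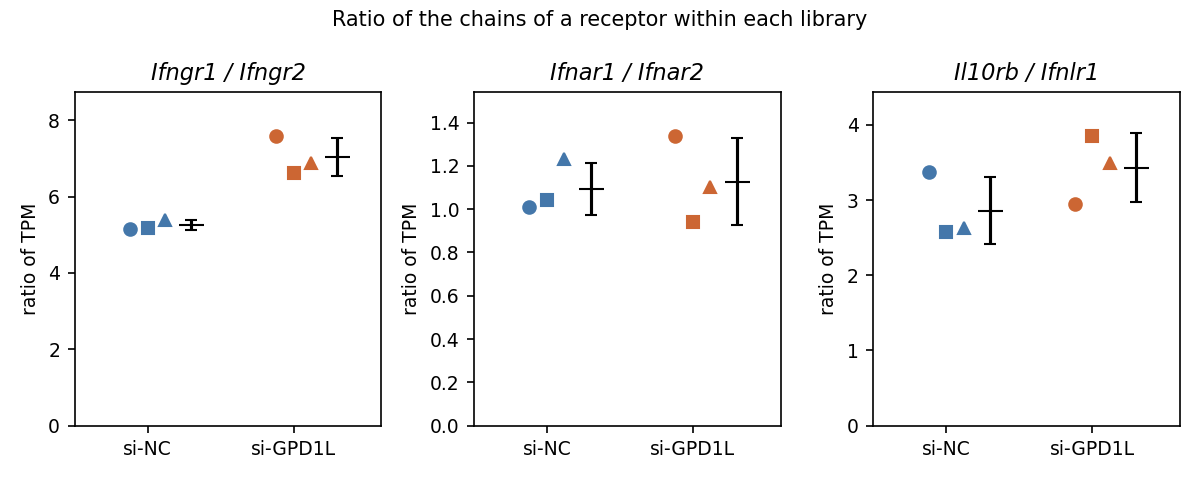
Ratio of the TPM of the 2 chains of each interferon receptor in each library, with replicates 1, 2 and 3 as circle, square and triangle and the group mean and SD in black. The Ifngr1 to Ifngr2 ratio is 5.16 to 5.4 in the si-NC libraries against 6.62 to 7.6 with si-GPD1L, and the groups overlap for the other 2 receptors.

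Downstream of the receptors, the genes that rose were transcription factors, and the kinases did not pass the test. Of 7 genes of receptor-proximal signalling, all tested, 3 rose (4.03% of all genes tested) and 0 fell (2.33%). Their median log2 fold change was 0.15, against -0.0049 over all genes tested. Among those that rose were the transcription factors Stat2 (2.18, SE 0.079, edgeR adjusted p = 8.77e-10) and Irf9 (1.81, SE 0.0773, edgeR adjusted p = 5.17e-09). Irf9 had 440, 501 and 446 normalised counts in si-NC and 1579, 1657 and 1613 in si-GPD1L, so every si-GPD1L library lay above every si-NC library. The kinases Jak1 (-0.064), Jak2 (-0.054) and Tyk2 (0.15), and Stat3 (-0.030), which serves interleukin 6 and interleukin 10 signalling, did not pass (edgeR adjusted p = 0.669, 0.77, 0.349 and 0.871).

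Of 12 genes listed as inhibitors at the receptor or just below it, 3 rose (4.03% of all genes tested) and 0 fell (2.33%). The count of 3 is given as a description, since it includes Usp18 and Isg15, whose limits follow. Usp18, which displaces Jak1 from Ifnar2, was the 1 gene of these with under 10 counts in some library and passed the filter through si-GPD1L. It had 1, 2 and 7 raw counts in si-NC and 980, 1459 and 1068 in si-GPD1L. Its fitted log2 fold change of 8.38 is likewise a description. Isg15 was counted in this list, although it is a ubiquitin-like protein that Usp18 removes from its targets and not itself a receptor inhibitor. It rose by 6.02 (edgeR adjusted p = 2.82e-10). Socs1, a kinase inhibitor, had 12, 19 and 15 raw counts in si-NC and 50, 68 and 52 in si-GPD1L, and rose by 1.85 on the log2 scale (edgeR adjusted p = 0.00118). Socs3 had a log2 fold change of -0.33 and did not pass (edgeR adjusted p = 0.0698), although 5 of its alternatives called it lower.

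Of 20 symbols listed for the pathways that induce Ifnb1, some of them alternative names for 1 gene, 17 were in the table and tested. Of these, 6 rose (4.03% of all genes tested) and 0 fell (2.33%). Irf7, the factor that amplifies interferon transcription, had 60, 73 and 74 raw counts in si-NC and 3311, 5488 and 3656 in si-GPD1L (log2 fold change 5.88, edgeR adjusted p = 1.14e-10). The RNA sensors Ddx58 (3.04), Ifih1 (2.67) and Tlr3 (0.83) also rose, with edgeR adjusted p of 2.62e-10, 2.73e-10 and 2.51e-04. Many of these genes are themselves inducible by interferon. Ifnb1 itself was at 0 in the same libraries.

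The response genes differed by type in what could be measured. Of 12 genes listed as type I responses, 5 had at least 10 counts in every library. The other 7 passed the filter through si-GPD1L, where they were high. The count of 12 called higher (4.03% of all genes tested) is therefore given as a description. So is their median log2 fold change of 6.31 (-0.0049 over all genes tested). Oasl2, an antiviral protein of the oligoadenylate synthetase family, is 1 of the 5, with 123, 137 and 129 raw counts in si-NC and 2123, 2878 and 2484 in si-GPD1L. Oasl2 rose by 4.24 on the log2 scale (SE 0.0951, edgeR adjusted p = 2.77e-11). Mx2, an antiviral GTPase and 1 of the 7, had 5, 7 and 9 raw counts in si-NC and 4303, 6091 and 4488 in si-GPD1L. The list was drawn up with results of these libraries known, it shares Usp18, Isg15 and Irf7 with the lists above, and its members respond to other signals besides interferon. Of 10 genes of the interferon gamma response, 1 could be tested, Irf1, a factor induced by both types. It rose by 0.60 (SE 0.0934, edgeR adjusted p = 0.00201). The other 9 genes, among them class II molecules and a chemokine typical of interferon gamma, were at 7 counts or fewer in every library. RT1-Bb and Ido1 were at 0 in every library, and RT1-Ba, RT1-Da, Cxcl9 and Nos2 were at no more than 3 counts in any. Ciita, the master regulator of class II genes, and Cd74, the invariant chain, had 1 to 6 and 2 to 6 counts, and RT1-Db1 had 1 to 7, with overlapping groups for each.

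**Figure D5:**
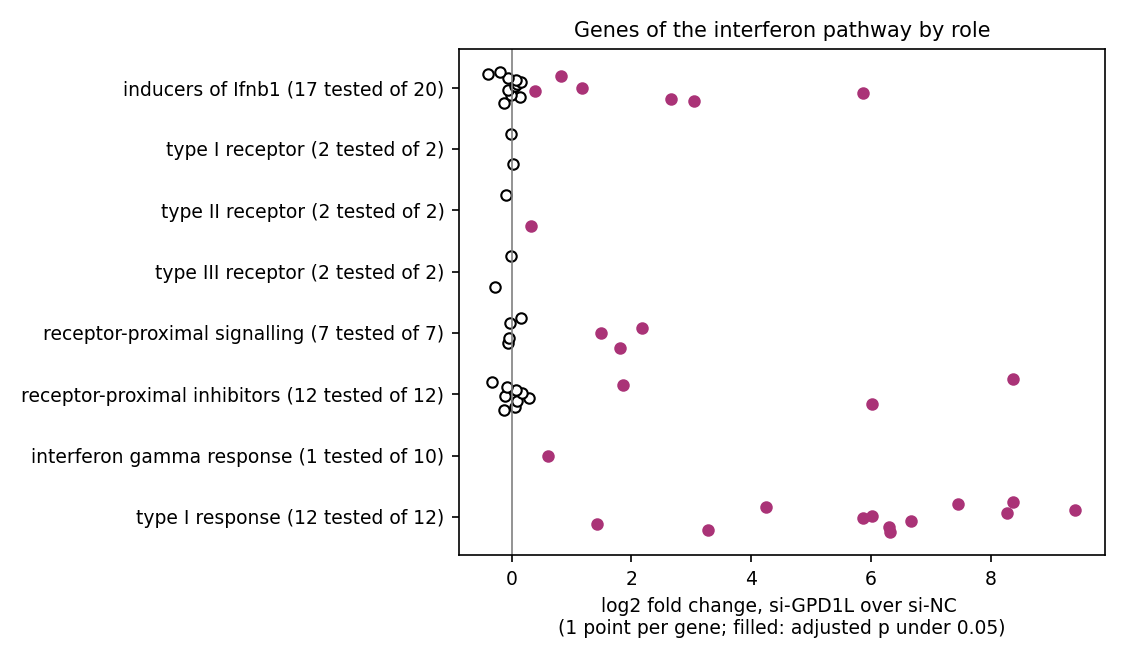
Log2 fold change of si-GPD1L over si-NC for every tested gene of the interferon pathway, grouped by role, with filled points for an adjusted p under 0.05 in edgeR. The 12 type I response genes lie above 0, 7 of them having passed the filter through si-GPD1L, and among the 6 receptor chains only Ifngr1 is filled.

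The other ligands and receptors that use Il10rb gave little. Of 4 cytokines that signal through Il10rb, Il22, Ifnl1 and Ifnl3 were at 0 in every library. Il10 had 5, 21 and 17 raw counts in si-NC and 7, 19 and 10 in si-GPD1L, with overlapping groups and a log2 fold change of -0.29 (edgeR adjusted p = 0.786). Of 6 other class II cytokine receptor genes, 2 were tested, and neither F3, the tissue factor gene (-0.28, edgeR adjusted p = 0.189), nor Il10ra, the partner of Il10rb for interleukin 10 (0.32, edgeR adjusted p = 0.666), passed. Il20ra was at 0.

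The markers of the cells that usually make or bind these ligands were measured in the same libraries. Of 12 T and natural killer cell markers, the usual sources of Ifng, 7 were at 0 in every library, including Cd3d, Cd3e, Nkg7 and Ncr1. Cd4, which macrophages can also carry in rats, had 52 to 89 counts in every library and was the 1 gene tested (log2 fold change -0.15, edgeR adjusted p = 0.691), and Cd8a had 3 to 9. The summed CPM of this list, most of it from Cd4, was 4.34 to 5.19 in the si-NC libraries against 3.49 to 4.96 with si-GPD1L. Siglech, which defines the plasmacytoid dendritic cells known for interferon alpha, was at 0. Il3ra, a cytokine receptor chain of the same list, had 392 to 416 counts in every library and did not pass the test (edgeR adjusted p = 0.946). The summed CPM of that list was 109 to 137 with si-GPD1L against 24.7 to 26.8 in the si-NC libraries. Of its 2 tested genes, 1 was called higher (4.03% of all genes tested). It was Bst2 (log2 fold change 4.99), which is itself inducible by interferon. Of 6 epithelial markers, Epcam and Cldn7 did not exceed 3 counts and Cdh1 did not exceed 6. The keratins Krt18 (4 to 14 counts) and Krt19 (1 to 13) were low, and Krt8, with 22 to 30 counts, was the 1 gene tested (log2 fold change 0.18, edgeR adjusted p = 0.747). Their summed CPM was 2.01 to 2.6 in the si-NC libraries against 2.32 to 3.02 with si-GPD1L, while Ifnlr1 was measured at 225 counts or more in every library. Endothelial markers were higher in si-GPD1L, at a summed CPM of 44.0 to 51.4 against 30.6 to 36.6. Of the 6, 3 were called higher (Plvap, Cdh5 and Pecam1), against 4.03% of all genes tested. The call of Pecam1 was lost when si-NC replicate 2, si-GPD1L replicate 2 or si-GPD1L replicate 3 was left out (edgeR adjusted p = 0.0858, 0.152 and 0.078). Cardiomyocyte markers had a summed CPM of 1310 to 1430 in si-GPD1L and 1500 to 1580 in si-NC, with 0 of 6 called (6.36% of all genes tested). Tnnt2 had 8506 to 12254 counts and Ryr2 360 to 639, so myocyte transcripts were present in every library. Whether endothelial cells or myocytes had a part in the values of Ifngr1 or Ifnlr1 was not tested.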

How the data were processed

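The deposited gene table holds raw counts of reads per gene and, beside them, the TPM values that the authors computed. The authors' transcript table holds counts per transcript. Per the submitters' processing notes, the tools were bcl2fastq, HISAT2 2.1.0 and HTSeq 0.12.4, with build rn6. The strand setting and the treatment of reads with several alignments are not given in the sources used here. Tables of the authors' own comparisons (fold changes and p-values) and of gene ontology and pathway terms were not used, and 0 per-sample columns were without a sample.

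Groups came from the sample titles. Genes were filtered with edgeR's filterByExpr and normalised by TMM, and si-GPD1L was tested against si-NC with edgeR's quasi-likelihood test (R 4.3.3, edgeR 4.0.16), with Benjamini-Hochberg adjustment over all 14852 genes and calls at an adjusted p under 0.05, and a stricter call asked also for a log2 change beyond 1 in size. The script was tested on simulated data. Normalised counts are counts divided by effective library size, scaled to the mean library. TPM was used for the order of levels and for chain ratios, which were compared by exact permutation (scipy 1.17.1). Figures used matplotlib 3.10.9. Depth was 16892255 to 20149732 counts per library. Alternatives were other normalisations, DESeq2 1.42.0, edgeR's exact test, other filters, a replicate block, each library left out in turn, and the transcripts of a gene summed. The exact test on unfiltered genes was chosen after seeing the data.

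Gene positions are those of the deposited table (rn6). Promoter sequences and symbols are from RefSeq (GRCr8), where 8 of 8 genes matched by symbol and gene number. The genes named were the 8 genes, Gpd1l, any other interferon ligand above 3 counts in a library, all genes of receptor-proximal signalling (1 is not reported here), at most 4 genes of each other list by smallest adjusted p, and the 3 genes most like each called gene among those with a mean of at least 50 normalised counts. Genes named for being at or near 0, LOC108350996, Socs3, Col1a1 and Col3a1 were picked after their values were seen. The 8 genes and the lists were chosen with earlier results of these data known.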

Additional observations from a re-analysis of the deposited data

How the results depend on the processing

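Ifngr1 kept its direction in all 15 alternatives, with a log2 fold change of 0.30 to 0.34, and was called in 13 of them, with an adjusted p of 0.000562 to 0.0987. The alternative that summed transcripts reused the gene counts of Ifngr1, which had a single transcript. Of the 8 genes, 1 was called in each alternative that kept all libraries, and 0 to 2 were called when 1 library was left out. Genes called over the whole table numbered 1528 with edgeR's exact test and 361 to 1531 with 1 library left out, and the cause was not tested. Ordered by CPM instead of TPM, 3 of the chains took another rank in si-NC. With upper-quartile normalisation Ifnar1 was at -0.011. With 1 library left out, log2 fold changes crossed 0 for Ifnar1 (-0.059 to 0.054), Ifnar2 (-0.094 to 0.099), Il10rb (-0.077 to 0.072), Jak2 (-0.12 to 0.037), Stat3 (-0.10 to 0.028) and Il10 (-0.71 to 0.13), none of which was called. Gpd1l stayed between -0.50 and -0.21 and was called in none. Same-numbered libraries showed no shared deviation (correlations -0.0144, -0.006 and 0.0435), and the main test did not pair them. Whether they came from the same culture cannot be told from these correlations. With the replicate block 921 genes were called, and Ifngr1 kept its call (adjusted p = 0.0217). By the cutoff used, an interferon gene at up to 3 counts per library was called not detected. Very low levels would be missed at this depth.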
